A study of Rattus norvegicus with 4 samples.

Results

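Messenger RNA for glucose uptake, glycolysis and lactate export was followed in whole rat lung through 38 genes, found by their symbol among the 22050 genes listed for each library. The list held 4 glucose transporters, the enzymes from hexokinase to lactate dehydrogenase with their isozymes, the PFKFB regulators, 2 monocarboxylate transporters, 4 pyruvate dehydrogenase kinases with the dehydrogenase subunit Pdha1, and 4 genes of the hypoxia-inducible factor (HIF) pathway. Slc5a1 was chosen by its measured values, a large fall in the comparison described here, so its values are given as a description with no test. The other 37 were listed by role, with results of the same comparison already known. Their adjusted p-values describe the fit over all genes and are no independent support.

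Lungs came from Sprague-Dawley rats (SD rat in the labels), collected on day 28 after 1 instillation of 0.2 mL into the trachea. The 2 treated rats received 5 mg/kg of bleomycin, a DNA-cleaving glycopeptide that serves as the standard agent for experimental lung scarring, and the 2 control rats received saline in the same volume. Each rat gave 1 library, and the labels used here give no age or sex. The question put to the data was which transcripts of the pathway differed between treated and control lungs on that day.

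Counts summed over genes ran from 34683699 to 44381111 per library, so 3 counts corresponded to at most 0.0868 CPM (counts scaled to the size of the library). CPM values compare 1 gene between libraries, and the authors' FPKM, which are scaled to gene length, are used wherever genes are compared with each other. All 38 members had counts in all 4 libraries and entered the fit, and 37 of them lay above the low-count limit of 0.242 CPM in both controls. The exception was Car9, which passed through the bleomycin libraries. Log2 changes are given as bleomycin relative to control, many with their standard error (SE). A gene was called at a Benjamini-Hochberg adjusted p under 0.05 from edgeR's quasi-likelihood test over 15709 genes. The p-values measure the spread between 2 rats a group and rest on little replication. Markers of lung tissue were present in every library, where 8 of 8 alveolar type 2 cell genes summed to between 19410 and 33040 CPM.

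Cells take up glucose passively through GLUT carriers, encoded by Slc2a genes, or against a gradient through the sodium-coupled carrier SGLT1, encoded by Slc5a1, which in the lung clears glucose from the fluid lining the airspaces. Glycolysis then turns glucose into pyruvate. Pyruvate is either oxidized in mitochondria, a step held back by the pyruvate dehydrogenase kinases, or reduced to lactate by lactate dehydrogenase and exported with a proton by monocarboxylate transporters. HIF-1, whose oxygen-regulated subunit is encoded by Hif1a, raises transcription of many of these genes when oxygen is low.

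Apart from Slc5a1, 11 members rose and 1 fell in bleomycin-treated lungs. The genes that rose were the transporter Slc2a4, the hexokinases Hk2 and Hk3, the phosphofructokinase subunit Pfkl, the enzymes Tpi1, Gapdh, Pgam1, Eno1 and Eno2, the lactate dehydrogenase subunit Ldha and the lactate exporter Slc16a3. The gene that fell was Pfkfb1. Fold changes of the genes that rose ran from 1.49 for Pfkl to 4.43 for Hk3. No gene of the pyruvate dehydrogenase group and no HIF pathway gene on the list was called by edgeR.

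Over all tested genes 9.26% were called higher and 7.79% lower. Among the 38 members 28.9% were called higher and 5.26% lower. The lower share includes Slc5a1, which was chosen for its fall. Nothing is read from either share, because the list was drawn up with this comparison known. The median log2 change was 0.56 over the members and 0.013 over all tested genes. Both bleomycin libraries lay above both controls for 25 members and below both for 8, while over all tested genes the shares were 35.1% and 33.4%. Of the 25 members that were not called, 20 had both bleomycin libraries on one side of both controls, and 12 had an adjusted p between 0.0512 and 0.1 by edgeR. The 20 include Car9, which passed the filter through the bleomycin libraries. The matching shares over all uncalled genes were not counted, so nothing is read from either number.

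The size of the difference was uneven between the treated rats. For 35 of the 38 members the distance to the control mean was larger in bleomycin replicate 1 than in replicate 2, as it was for 67.5% of all tested genes. The calls apart from Slc5a1 were not made when either control was left out. The spread in such a fit comes from the bleomycin pair alone. That pair differed by 100 times the sampling variance, against 23.4 for the control pair. Without control replicate 1 and 2 the log2 change of Gapdh was 1.24 and 1.20, against 1.22 with all libraries. For Pfkfb1 it was -1.02 and -1.63, against -1.35. Without 1 bleomycin library the spread comes from the control pair alone, so calls made that way are not counted. The log2 change of Gapdh was 0.77 without bleomycin replicate 1 and 1.55 without bleomycin replicate 2.

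**Figure D1:**
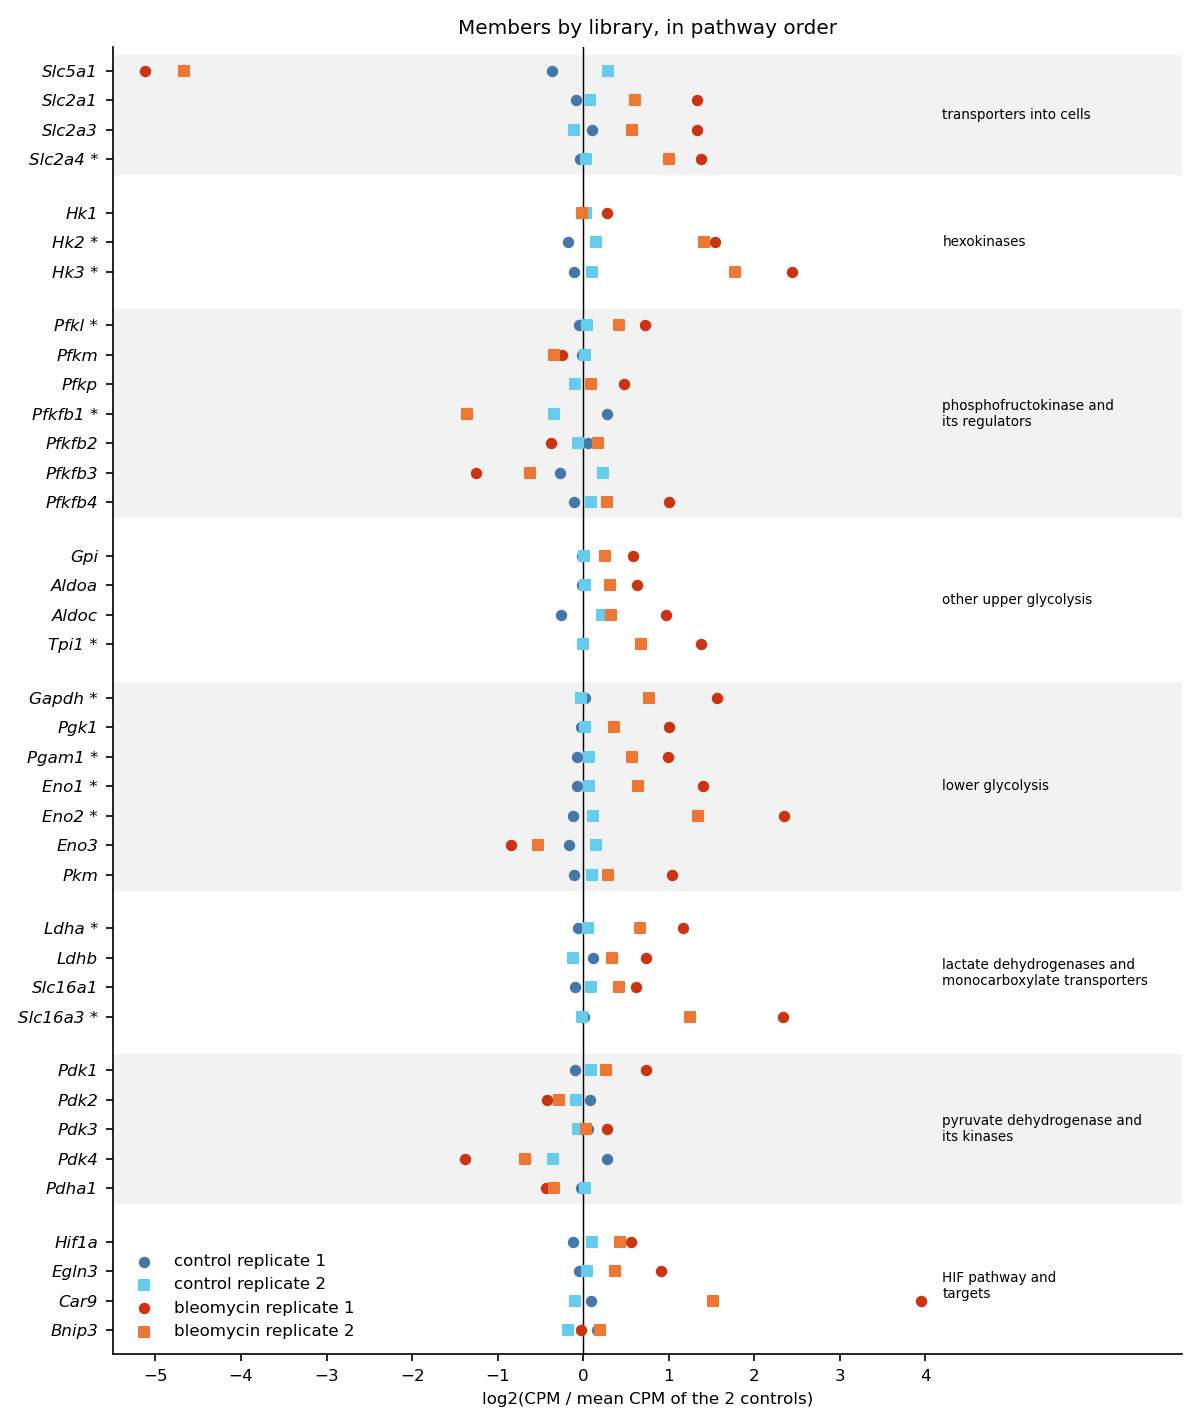
Each member's CPM in each library relative to the mean of the 2 controls, on a log2 scale, in pathway order, with blue points for controls and red or orange points for bleomycin libraries. Asterisks mark members called by edgeR at an adjusted p under 0.05, and Slc5a1 carries none because it was chosen for its fall; red points (bleomycin replicate 1) lie farther out than orange ones (replicate 2) for 35 of 38 members.

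Glucose transporters moved in opposite directions. Slc5a1 (ENSRNOG00000017775) stood at 22.0 and 34.6 CPM in the control rats and at 0.810 and 1.11 CPM in the treated rats. These are 760 and 1509 counts against 32 and 49, and the groups were far from overlapping. The level was 29.4-fold lower, a log2 change of -4.88, and it ranked 2 in size among the falls of tested genes whose mean log2 CPM was 1 or more. Under the alternatives run, leaving out each library among them, the log2 change stayed between -5.18 and -4.51. In bulk tissue, fewer cells of a type and less RNA per cell cannot be told apart, for this gene as for all others here.

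Transcripts of the epithelium that lines the airspaces were also lower in these lungs. Markers of alveolar type 1 cells, 6 of 6 found, summed to 5777 and 6309 CPM in the controls and 2072 and 3127 CPM in the bleomycin libraries. Club cell markers, 4 of 4 found, summed to 10020 and 10620 CPM against 1984 and 2242 CPM, with Scgb1a1 making up 95.0% of the sum. Ciliated cell markers, 5 of 6 found, summed to 632.9 and 562.3 CPM against 196.6 and 283.9 CPM. Alveolar type 2 markers had sums of 32970 and 33040 CPM against 19410 and 31240 CPM, where 4 of 8 genes lay below both controls and 1 above, so bleomycin replicate 2 was near the controls. None of these markers was at 0 in any library, and the part of these cells in the level of Slc5a1 was not tested.

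Slc2a1 (ENSRNOG00000007284), which encodes GLUT1, the basal glucose carrier of most tissues, stood at 36.6 and 41.1 CPM in the control rats and at 97.6 and 59.1 CPM in the treated rats 1 and 2. Both bleomycin libraries were above both controls, but the 2.02-fold difference missed the threshold at an edgeR adjusted p of 0.0512. Slc2a3, encoding the high-affinity carrier GLUT3, was at 2.98 and 2.59 CPM in the controls and 7.02 and 4.15 CPM in the bleomycin libraries (2.01-fold, edgeR adjusted p = 0.0952). Slc2a4 (ENSRNOG00000017226), encoding GLUT4, the insulin-responsive carrier of muscle and fat, rose 2.30-fold, from 2.43 and 2.54 CPM to 6.46 and 4.97 CPM (log2 change 1.20 ± 0.25, edgeR adjusted p = 0.0357). Without bleomycin replicate 1 its adjusted p was 0.0577 by edgeR.

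Muscle and fat transcripts were present at levels that varied between lungs. Skeletal muscle markers, 6 of 8 found and none at 0, summed to 9.002 and 5.59 CPM in the controls and 29.7 and 16.6 CPM in the bleomycin libraries. Acta1 made up 52.5% of that sum, and of the 6 genes 2 lay above both controls, 1 below and 3 overlapped. Heart muscle markers, 10 of 10 found with Nppa at 0 in a library, summed to 226.5 and 40.7 CPM in the control rats 1 and 2 and to 127.6 and 76.8 CPM in the treated rats, so the groups overlapped. Adipocyte markers summed to 34.9 and 7.06 CPM against 8.10 and 4.42 CPM, with Retn, Ucp1 and Plin1 each at 0 in some library. The part of these tissues in the level of Slc2a4 was not tested.

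Per gene length, Slc2a1 was the more abundant of the pair with Slc5a1 in all 4 libraries. The ratio of Slc2a1 to Slc5a1 in FPKM was 2.42 and 1.73 in the control rats and reached 173 and 78.4 in the treated rats. Among the 3 passive carriers on the list the makeup stayed in a narrow band. Slc2a1 held between 85.8% and 88.0% of the summed FPKM of Slc2a1, Slc2a3 and Slc2a4 in the 4 libraries. That sum was 20.98 and 23.1 FPKM in the controls and 55.9 and 33.7 FPKM in the bleomycin libraries. Other passive carriers are outside it, so the band holds for these 3 alone. Slc2a10 had 11.57 and 12.24 FPKM in the controls and 4.46 and 3.43 FPKM in the bleomycin libraries. Slc2a12 had 5.5 and 4.59 against 1.49 and 1.92 FPKM, and Slc2a5, going the other way, 0.33 and 0.33 against 2.09 and 1.62 FPKM. With 2 libraries against 2, an exact permutation test cannot go below p = 0.333, so shares and ratios of FPKM are given without a test.

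**Figure D2:**
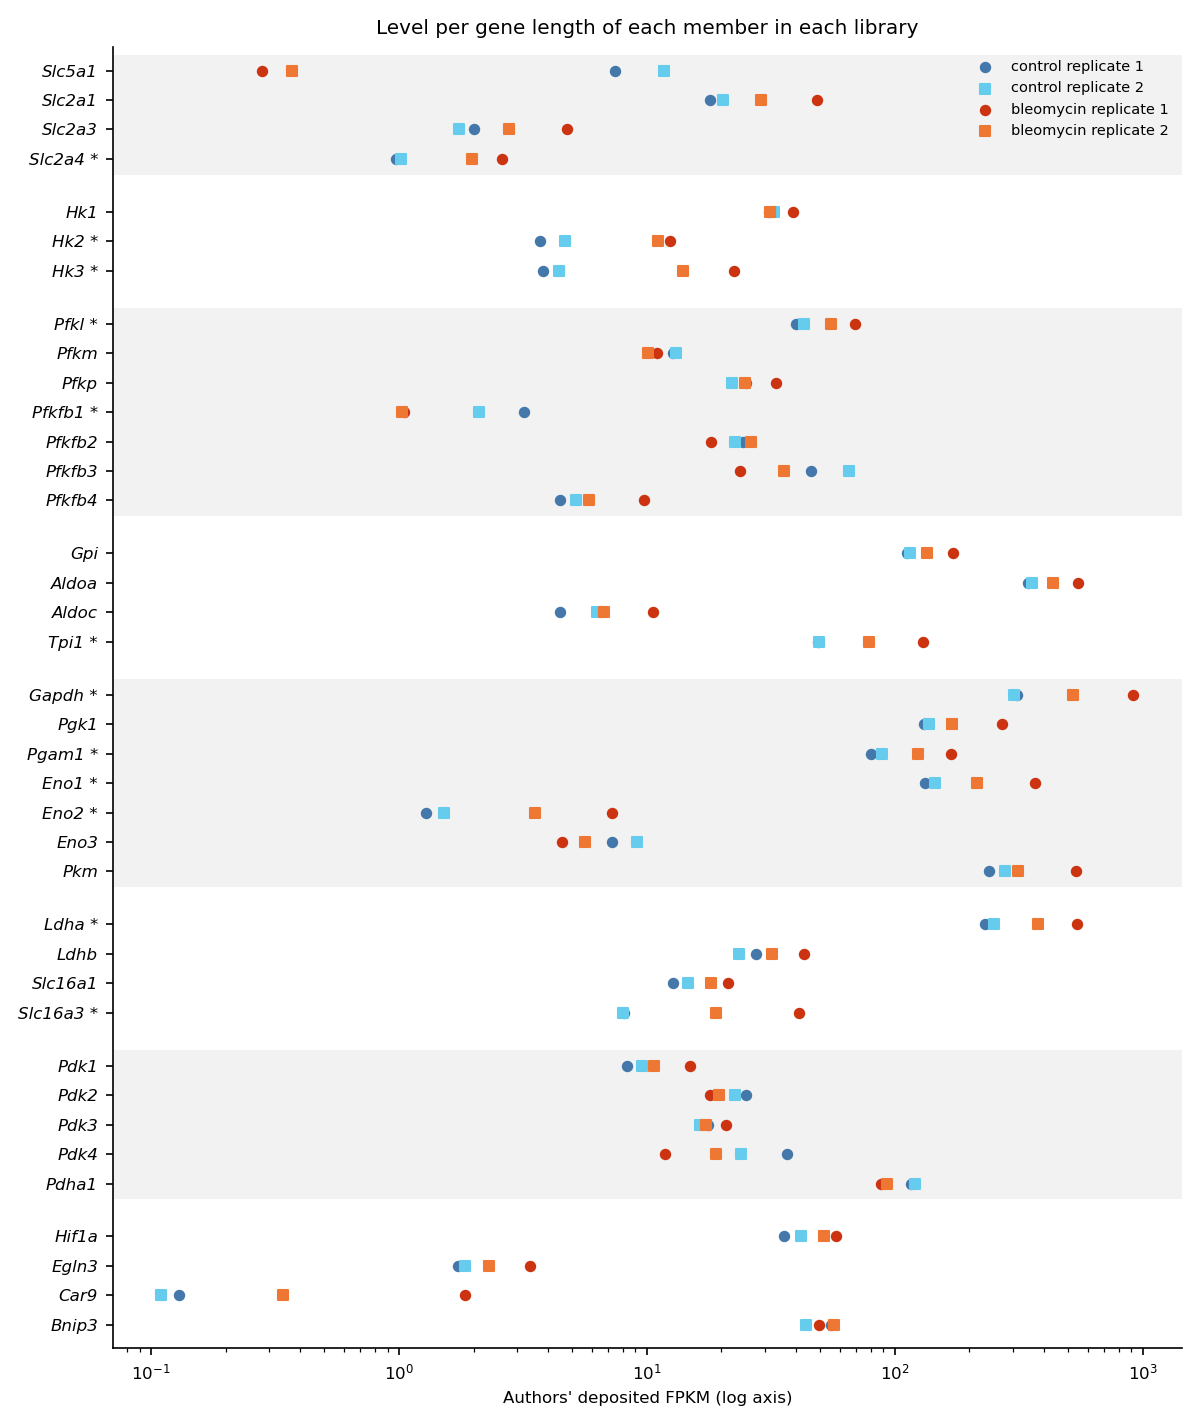
The authors' FPKM of each member in each library on a log axis, in the same pathway order, with blue points for controls and red or orange points for bleomycin libraries and asterisks as above. Gapdh, Aldoa, Ldha and Pkm were the most abundant members per length, between 231 and 918 FPKM, and Car9 was the scarcest in the controls, at 0.13 and 0.11 FPKM.

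Hexokinases trap glucose in the cell by phosphorylation, and their isozymes parted. Hk1 (ENSRNOG00000046891), the form found in nearly all cells, had 83.7 and 87.1 CPM in the controls and 103 and 84.5 CPM in the bleomycin libraries, which overlap (log2 change 0.14 ± 0.13, edgeR adjusted p = 0.485). Hk2 (ENSRNOG00000006116), the inducible form of muscle, fat and growing cells, rose 2.79-fold, from 20.3 and 25.5 CPM to 66.7 and 61.0 CPM (log2 change 1.48 ± 0.15, edgeR adjusted p = 0.0119). The treated rats were close to each other for this gene. Hk3 (ENSRNOG00000026235), a form known from white blood cells, rose 4.43-fold, from 11.9 and 13.8 CPM to 69.8 and 44.0 CPM (log2 change 2.15 ± 0.25, edgeR adjusted p = 0.0140).

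The share of Hk1 in hexokinase FPKM was 80.5% and 78.1% in the controls and 52.7% and 55.5% in the bleomycin libraries. Hk3 went from 9.84% and 10.6% to 30.6% and 24.8%, and Hk2 from 9.63% and 11.3% to 16.8% and 19.8%. Summed hexokinase FPKM was 38.6 and 41.7 in the controls and 73.7 and 56.5 in the bleomycin libraries. Beside Hk3, the 8 macrophage markers, all found and none at 0, summed to 16050 and 16020 CPM in the controls and 12000 and 17800 CPM in the bleomycin libraries. That sum was 87.3% Lyz2, and 4 of the 8 genes lay above both controls and none below. The 6 neutrophil markers, all found and none at 0, summed to 170.4 and 118.5 CPM against 77.2 and 103.7 CPM. That sum was 46.0% S100a9, and 4 of the 6 genes lay below both controls while 2 overlapped. The pan-leukocyte markers, 5 of 6 found, were below both controls in both bleomycin libraries for 5 of 5 genes. The part of these cells in the rise of Hk3 was not tested.

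Phosphofructokinase commits sugar to glycolysis, and the PFKFB enzymes make and break its activator, fructose 2,6-bisphosphate. Pfkl (ENSRNOG00000001214), the liver-type subunit, rose 1.49-fold, from 111 and 119 CPM to 189 and 153 CPM (log2 change 0.58 ± 0.14, edgeR adjusted p = 0.0458). The muscle subunit Pfkm was at 35.3 and 36.1 CPM in the controls and 30.1 and 28.2 CPM in the bleomycin libraries (edgeR adjusted p = 0.113), and the platelet subunit Pfkp overlapped between groups. By FPKM, Pfkl made up 51.5% and 55.1% of the 3 subunits in the controls and 61.1% and 61.2% in the bleomycin libraries, and Pfkm went from 16.4% and 16.8% to 9.71% and 11.2%.

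Of the 4 PFKFB genes 1 fell and none was called higher. Pfkfb1 (ENSRNOG00000000165), the form of liver and muscle, fell 2.56-fold, from 5.50 and 3.57 CPM to 1.77 and 1.77 CPM (log2 change -1.35 ± 0.32, edgeR adjusted p = 0.0464), and it was not called when any 1 of the 4 libraries was left out, with edgeR adjusted p between 0.0636 and 0.263. Pfkfb3 (ENSRNOG00000018911), whose product strongly favours making the activator and which is inducible by HIF-1, was the most abundant of the family per length. It had 115 and 163 CPM in the controls and 58.4 and 89.9 CPM in the bleomycin libraries, below both controls in each case (log2 change -0.90 ± 0.26, edgeR adjusted p = 0.0740). Pfkfb4 had 7.73 and 8.89 CPM against 16.6 and 10.1 CPM (edgeR adjusted p = 0.143). Pfkfb2 overlapped, with bleomycin replicate 1 the lowest and bleomycin replicate 2 the highest of the 4 libraries. The summed FPKM of the family was 78.0 and 95.4 in the controls and lower in the bleomycin libraries, at 52.7 and 69.2. The sum of phosphofructokinase subunits was 77.9 and 78.5 FPKM in the controls and higher in the bleomycin libraries, at 113 and 90.4 FPKM.

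The other upper enzymes were above both controls in both bleomycin libraries, and 1 of these 4 was called. Tpi1 (ENSRNOG00000015290), triose phosphate isomerase, rose 2.10-fold, from 71.2 and 71.5 CPM to 186 and 114 CPM (log2 change 1.07 ± 0.24, edgeR adjusted p = 0.0414). Gpi, glucose-6-phosphate isomerase, had 226 and 231 CPM in the controls and 343 and 273 CPM in the bleomycin libraries (edgeR adjusted p = 0.0955). Aldoa, the main aldolase, which splits the sugar, had 488 and 501 CPM against 767 and 615 CPM, a 1.40-fold difference with an edgeR adjusted p of 0.0816. Aldoc, the aldolase best known from brain, stayed under 2% of aldolase FPKM in each library, between 1.27% and 1.89% (edgeR adjusted p = 0.162).

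In the lower, energy-yielding steps 4 of 7 genes rose and none was called lower. Gapdh (ENSRNOG00000018630), the dehydrogenase often used as a reference gene, rose 2.33-fold, from 314 and 303 CPM to 913 and 527 CPM (log2 change 1.22 ± 0.27, edgeR adjusted p = 0.0407). Pgam1, phosphoglycerate mutase, rose 1.74-fold, from 140 and 154 CPM to 292 and 218 CPM (edgeR adjusted p = 0.0362). For each of these genes the libraries of the groups were apart and bleomycin replicate 1 was the highest.

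Enolases split by isozyme. Eno1 (ENSRNOG00000017895), the ubiquitous form, rose 2.10-fold, from 233 and 255 CPM to 641 and 381 CPM, with an edgeR adjusted p of 0.0497. It lost the call with other size factors, with library totals alone and without the low-count filter, where the adjusted p lay between 0.0504 and 0.0511. Eno2 (ENSRNOG00000013141), the form of neurons and neuroendocrine cells, rose 3.81-fold, from 2.90 and 3.39 CPM to 16.03 and 7.96 CPM (log2 change 1.93 ± 0.40, edgeR adjusted p = 0.0349), or 2.52-fold without bleomycin replicate 1. Eno3, the muscle form, had 10.4 and 13.0 CPM in the controls and 6.48 and 8.08 CPM in the bleomycin libraries, on the low side (log2 change -0.68 ± 0.21, edgeR adjusted p = 0.0777). By FPKM the share of Eno3 went from 5.14% and 5.82% to 1.20% and 2.50%, and that of Eno2 from 0.917% and 0.973% to 1.90% and 1.57%.

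Pgk1, the kinase that makes ATP from 1,3-bisphosphoglycerate, and Pkm, pyruvate kinase, were higher in both bleomycin libraries without being called. Pgk1 had 149 and 154 CPM in the controls and 303 and 194 CPM in the bleomycin libraries (edgeR adjusted p = 0.0844). Pkm had 416 and 479 CPM against 922 and 546 CPM (edgeR adjusted p = 0.121). Gene counts here do not separate the M1 and M2 splice forms of Pkm. Several of these abundant genes have processed copies in the genome. For the GRCr8 assembly RefSeq lists 78 pseudogenes named for Gapdh, 30 each for Eno1 and Ldha, 19 for Pkm, 13 for Pgam1, 9 for Aldoa, 8 each for Pgk1 and Bnip3, 3 for Tpi1 and 1 for Ldhb, and none of these symbols is in the files. The sources used here do not say how reads shared with such copies were counted, so the levels of these genes are uncertain to that extent.

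Of the 4 genes of lactate production and transport on the list, Ldha and Slc16a3 rose and none was called lower. Ldha (ENSRNOG00000013009), whose subunit favours making lactate, rose 1.91-fold, from 371 and 400 CPM to 863 and 613 CPM (log2 change 0.94 ± 0.19, edgeR adjusted p = 0.0343). Ldhb, whose subunit favours using lactate, had 37.0 and 31.5 CPM in the controls and 57.1 and 43.2 CPM in the bleomycin libraries (1.46-fold, edgeR adjusted p = 0.0860). The ratio of Ldha to Ldhb in FPKM was 8.40 and 10.6 in the controls and 12.7 and 11.9 in the bleomycin libraries, so the groups were apart by little.

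Slc16a3 (ENSRNOG00000036677) encodes MCT4, the exporter of strongly glycolytic cells. It stood at 17.05 and 16.8 CPM in the control rats and at 85.3 and 40.2 CPM in the treated rats 1 and 2. The controls were nearly equal, and the treated rats differed from each other by more than the controls did. It rose 3.70-fold (log2 change 1.89 ± 0.36, edgeR adjusted p = 0.0307), or 2.36-fold without bleomycin replicate 1. Slc16a1, which encodes the widely expressed carrier MCT1, had 31.8 and 36.4 CPM against 52.5 and 45.4 CPM (1.44-fold, edgeR adjusted p = 0.0521). The share of Slc16a3 in the FPKM of the pair was 38.9% and 35.4% in the controls and 65.8% and 51.2% in the bleomycin libraries, so the exporter went from the smaller to the larger part.

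**Figure D3:**
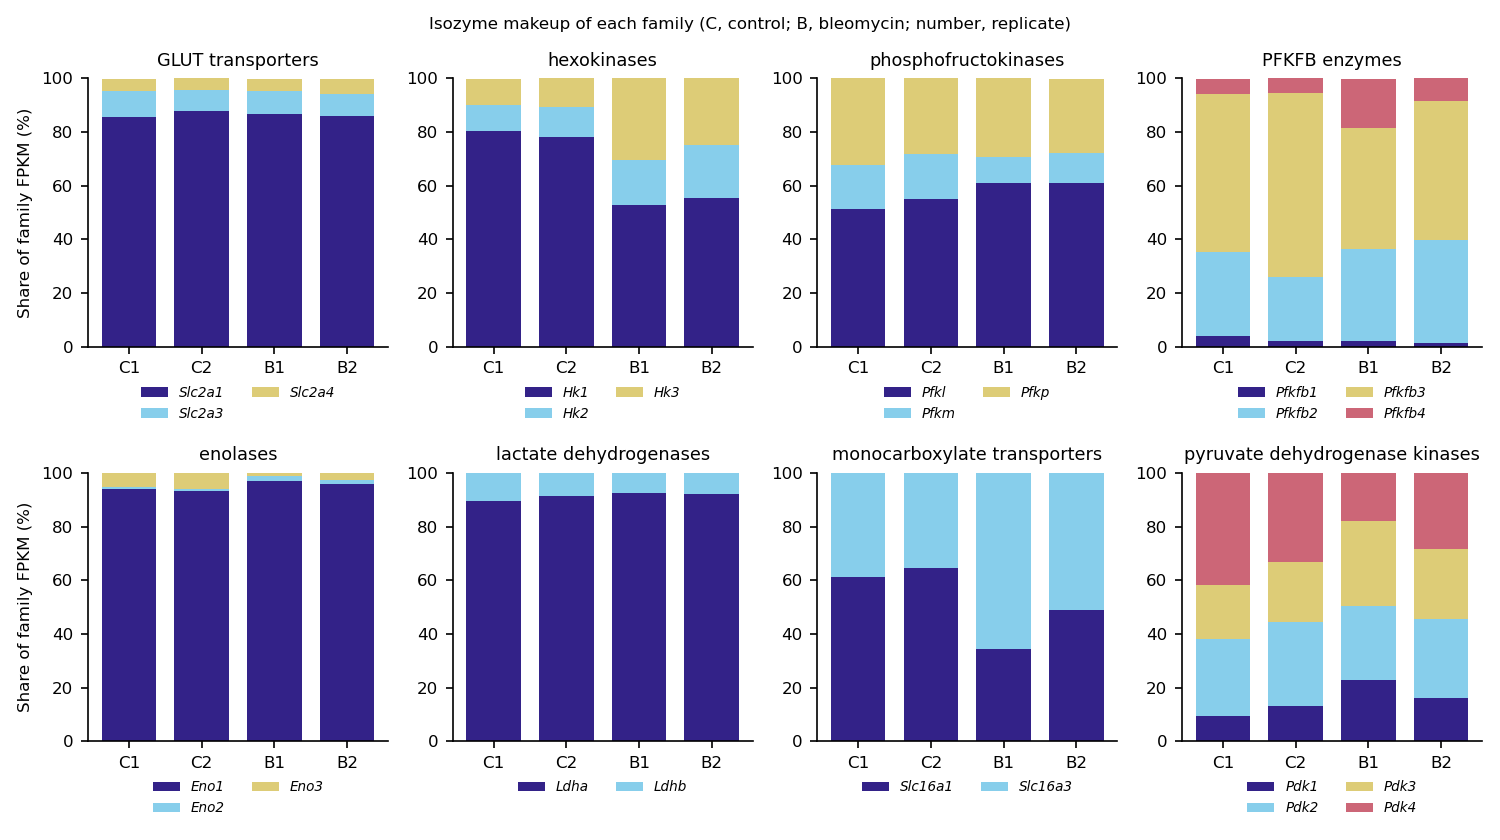
Share of each isozyme in the summed FPKM of its family, in percent, as stacked bars for the 4 libraries (C1 and C2, controls; B1 and B2, bleomycin). Hk1 covers 80.5% and 78.1% of hexokinase FPKM in the controls and 52.7% and 55.5% in the bleomycin libraries. Slc16a3 passes from 38.9% and 35.4% to 65.8% and 51.2%. The GLUT panel, drawn from Slc2a1, Slc2a3 and Slc2a4 alone, stays nearly level.

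Marker sums of other cell types also differed between the groups. Fibroblast markers, 6 of 6 found and none at 0, summed to 2793 and 2804 CPM in the controls and 14860 and 7485 CPM in bleomycin replicates 1 and 2. The collagen gene Col3a1 made up 55.1% of that sum, and of the 6 genes 4 lay above both controls and 2 overlapped. Markers of proliferating cells, 6 of 6 found, summed to 58.6 and 62.8 CPM against 313 and 192 CPM and lay above both controls for each of the 6 genes. Endothelial markers, 5 of 6 found with Cldn5 at 0 in a library, summed to 4401 and 3776 CPM against 1444 and 2039 CPM. Of these 5 genes 4 lay below both controls and 1 overlapped. Red blood cell markers, 7 of 8 found, summed to 4998 and 3673 CPM against 2224 and 2485 CPM, where 5 genes lay below both controls and 2 overlapped. The fibroblast and proliferation sums were higher in both bleomycin libraries, as were Slc16a3, Ldha and Gapdh, and the part of these cells in those rises was not tested.

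No gene of the pyruvate dehydrogenase group was called by edgeR, while 4 of 5 had an unadjusted p under 0.05 and DESeq2 called Pdk4 and Pdha1. The share of all tested genes with such a p or a DESeq2 call was not counted. Nothing is therefore read from counts of either kind, here or below. Of the kinases that switch the dehydrogenase off, Pdk4, the form raised by fasting and fat oxidation, had 58.3 and 37.6 CPM in the controls and 18.4 and 30.0 CPM in the bleomycin libraries (log2 change -0.99 ± 0.31, edgeR adjusted p = 0.0863). Pdk1, the form induced by HIF-1, was on the other side, with 13.2 and 15.0 CPM against 23.5 and 17.0 CPM (log2 change 0.52 ± 0.20, edgeR adjusted p = 0.127). Pdk2 had 31.0 and 27.7 CPM against 21.9 and 24.1 CPM (edgeR adjusted p = 0.112), and Pdk3 overlapped between groups. By FPKM the share of Pdk4 among the kinases went from 41.9% and 33.0% to 18.0% and 28.5%, and that of Pdk1 from 9.46% and 13.1% to 22.8% and 16.1%. Pdha1 (ENSRNOG00000025383), the catalytic subunit that the kinases phosphorylate, had 232 and 240 CPM in the controls and 175 and 186 CPM in the bleomycin libraries. Its groups were tight and apart (log2 change -0.39 ± 0.10, edgeR adjusted p = 0.0589).

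HIF pathway genes were uneven. None was called by edgeR, Hif1a and Egln3 had an unadjusted p under 0.05, and DESeq2 called Hif1a. Car9 also had such a p and a DESeq2 call, but it entered the fit through the libraries where it was high, so these support nothing. Hif1a (ENSRNOG00000008292) had 115 and 135 CPM in the controls and 184 and 168 CPM in the bleomycin libraries (log2 change 0.50 ± 0.12, edgeR adjusted p = 0.0524). Its protein is mainly regulated by degradation, which these data do not measure. Egln3, a prolyl hydroxylase that marks HIF for degradation and is itself a HIF target, had 4.89 and 5.20 CPM against 9.45 and 6.51 CPM (edgeR adjusted p = 0.124). Car9 (ENSRNOG00000017073), a carbonic anhydrase used as a hypoxia marker, had 9 and 10 counts in the controls and 149 and 31 counts in the bleomycin libraries, or 0.261 and 0.229 CPM against 3.77 and 0.703 CPM. Its log2 change was 3.19 ± 1.11 with an edgeR adjusted p of 0.107, and 1.52 without bleomycin replicate 1. Bnip3, a mitophagy receptor and HIF target, overlapped between groups at 51.3 and 40.5 CPM against 45.2 and 52.8 CPM (edgeR adjusted p = 0.690).

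HIF-1 binds short elements whose core is ACGTG or GCGTG. Both cores were searched on both strands (CACGT and CACGC on the strand shown) in RefSeq promoter windows of the GRCr8 assembly, which run from 250 bases before to 50 bases after a gene's start. The window table matched 35 of the 38 members with 39 windows, since Hk1, Aldoa and Eno1 have several. The promoters of Slc2a3, Slc2a4 and Pgk1 were not analysed here. The sequence CACGTG, which also binds other factors, holds the ACGTG core on both strands. The windows of 3 genes that rose, 2 with a core and 1 without, and of Slc5a1 are printed to show that a core was present in some genes that rose and absent in another, and present in Slc5a1. Capitals mark the cores, and each window is written 5′ to 3′ on the gene's strand.
Ldha: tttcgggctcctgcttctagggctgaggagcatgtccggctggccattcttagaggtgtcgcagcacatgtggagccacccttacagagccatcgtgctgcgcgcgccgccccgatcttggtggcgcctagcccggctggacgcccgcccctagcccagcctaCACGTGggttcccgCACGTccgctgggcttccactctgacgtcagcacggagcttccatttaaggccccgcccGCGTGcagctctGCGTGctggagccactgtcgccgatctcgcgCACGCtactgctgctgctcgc
Gapdh: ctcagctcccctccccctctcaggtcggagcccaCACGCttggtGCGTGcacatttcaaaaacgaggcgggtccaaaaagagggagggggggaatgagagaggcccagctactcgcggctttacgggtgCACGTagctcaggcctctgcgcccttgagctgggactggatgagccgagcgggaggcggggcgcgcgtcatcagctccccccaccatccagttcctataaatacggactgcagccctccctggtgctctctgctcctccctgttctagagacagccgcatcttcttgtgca
Slc16a3: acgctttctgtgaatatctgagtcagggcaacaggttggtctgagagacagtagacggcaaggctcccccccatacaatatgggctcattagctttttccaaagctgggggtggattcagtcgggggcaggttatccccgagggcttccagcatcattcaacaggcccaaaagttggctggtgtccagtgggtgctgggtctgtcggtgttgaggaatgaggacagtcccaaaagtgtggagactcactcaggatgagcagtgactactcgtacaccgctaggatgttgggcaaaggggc
Slc5a1: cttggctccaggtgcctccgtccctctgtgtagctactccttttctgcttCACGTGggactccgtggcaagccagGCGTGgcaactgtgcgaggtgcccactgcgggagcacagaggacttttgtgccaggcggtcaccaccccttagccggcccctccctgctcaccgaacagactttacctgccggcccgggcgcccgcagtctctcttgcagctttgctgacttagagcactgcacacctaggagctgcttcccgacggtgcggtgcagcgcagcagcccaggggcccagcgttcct

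These windows lie at chr1:106507842-106508141 on the plus strand for Ldha, chr4:159652418-159652717 on the minus strand for Gapdh, chr10:106712078-106712377 on the plus strand for Slc16a3 and chr14:81843035-81843334 on the minus strand for Slc5a1. Ldha held 3 matches to ACGTG and 3 to GCGTG, Gapdh 1 and 2, Slc16a3 none of either, and Slc5a1 2 and 1. Of the member windows, 66.7% held a core, against 57.5% of 12676 windows of tested genes and 41.6% of all 33469 windows in the table. For ACGTG alone the shares were 53.8%, 23.4% and 19.3%. A core was present in 8 of 11 windows of members called higher and in 17 of 26 windows of members not called. The matches are letters in a window and show no binding.

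Neighbouring pathways were read from 9 lists with 89 entries, of which 86 were found and 78 tested. In all, 6 of the 78 tested genes rose and 5 fell, and their median log2 change was 0.03. Over all tested genes 9.26% were called higher and 7.79% lower, and 35.1% had both bleomycin libraries above both controls. The counts below, in all and by list, are therefore read as no result about these pathways. The calls in these lists were not made when either control was left out, where the spread comes from the bleomycin pair alone. Of 9 other glucose and fructose transporters 1 rose and 2 fell. Slc2a5, which encodes the fructose carrier GLUT5, rose 5.59-fold, from 0.695 and 0.687 CPM to 4.33 and 3.40 CPM (edgeR adjusted p = 0.0165). Slc2a10 fell 3.03-fold, from 47.7 and 50.2 CPM to 18.2 and 14.2 CPM (edgeR adjusted p = 0.0117), and Slc2a12 fell 2.96-fold, from 22.8 and 18.8 CPM to 6.08 and 7.94 CPM (edgeR adjusted p = 0.0157). Slc2a10 and Slc2a12 encode the passive carriers GLUT10 and GLUT12.

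Of 6 gluconeogenesis genes 1 rose. Fbp1, fructose-1,6-bisphosphatase, runs the phosphofructokinase step in reverse, and rose 13.1-fold from 3.36 and 5.18 CPM to 90.5 and 21.2 CPM (edgeR adjusted p = 0.0353), and the fold was 4.93 when bleomycin replicate 1 was left out and 20.9 when replicate 2 was. Of 11 glycogen genes 2 rose and none fell. Gyg1, the primer of glycogen synthesis, rose 1.94-fold, from 46.5 and 59.7 CPM to 103 and 104 CPM (edgeR adjusted p = 0.0199), and Ugp2, which makes UDP-glucose, rose 1.36-fold, from 52.4 and 52.2 CPM to 72.5 and 70.1 CPM (edgeR adjusted p = 0.0353). None of 7 pentose phosphate genes was called by edgeR, although 6 of them lay above both controls, 4 had an unadjusted p under 0.05 and DESeq2 called 3. Among these Tkt, transketolase, had the smallest p, with 296 and 328 CPM in the controls and 513 and 418 CPM in the bleomycin libraries (edgeR adjusted p = 0.0543). Nor was any of 7 other glycolytic isozymes called, where Minpp1, a phosphatase that can bypass a glycolytic step, came nearest (edgeR adjusted p = 0.143), and 0 of the 7 had an unadjusted p under 0.05 or a DESeq2 call.

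Of 9 genes of pyruvate entry and the dehydrogenase complex none was called by edgeR or DESeq2, and 2 had an unadjusted p under 0.05. Dld, its dihydrolipoyl dehydrogenase, had 69.5 and 68.7 CPM in the controls and 89.7 and 86.4 CPM in the bleomycin libraries (edgeR adjusted p = 0.0600). Of 6 other carriers of lactate and related acids or their partners, Slc5a8, a sodium-coupled importer, rose 1.46-fold, from 19.6 and 17.6 CPM to 27.5 and 26.7 CPM (edgeR adjusted p = 0.0413), and Slc16a7, which encodes the high-affinity carrier MCT2, fell 2.01-fold, from 11.6 and 11.1 CPM to 4.46 and 6.85 CPM (edgeR adjusted p = 0.0491). Both lost the call without bleomycin replicate 1, with edgeR adjusted p of 0.0632 and 0.0527.

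Among 8 other HIF regulators 1 fell and none rose. Epas1 (ENSRNOG00000021318), which encodes HIF-2 alpha and is high in lung endothelium, fell 2.96-fold, from 4635 and 4415 CPM to 1182 and 1881 CPM (edgeR adjusted p = 0.0229). The ratio of Epas1 to Hif1a in FPKM was 37.98 and 30.9 in the controls and 6.05 and 10.6 in the bleomycin libraries. Of 15 other hypoxia targets 1 rose and 1 fell. Ndrg1, a stress-responsive gene, rose 1.36-fold, from 102 and 104 CPM to 139.8 and 139.7 CPM (edgeR adjusted p = 0.0366), and Vegfa, the endothelial growth factor, fell 2.24-fold, from 492 and 426 CPM to 165 and 245 CPM (edgeR adjusted p = 0.0285). The median of these targets was -0.24 on the log2 scale. Endothelial and alveolar type 1 marker sums, given above, were lower alongside Epas1 and Vegfa, and their part in these falls was not tested.

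**Figure D4:**
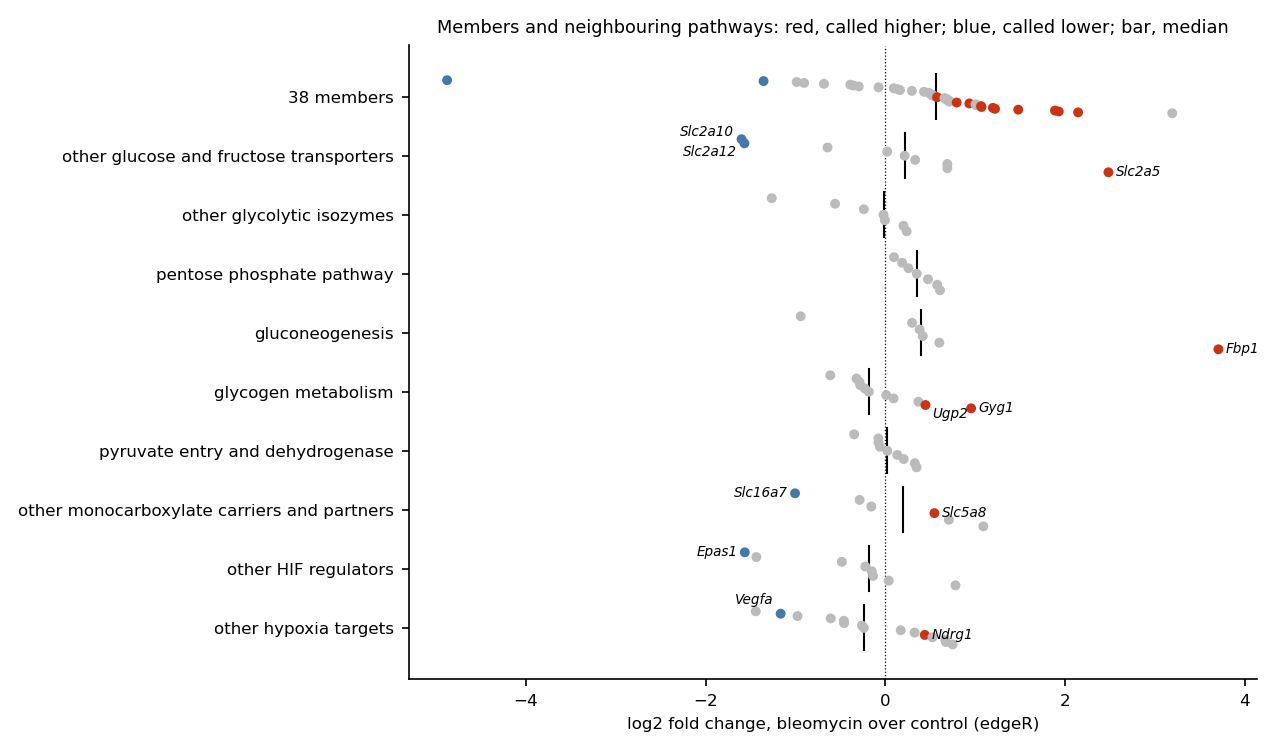
Log2 fold changes of bleomycin over control for the 38 members and for the tested genes of 9 neighbouring lists, 1 point per gene, with red for genes called higher, blue for genes called lower, grey for genes not called, and a bar at each median. The members' median is 0.56, the lowest point is Slc5a1 at -4.88, and the medians of the other hypoxia targets and of the other HIF regulators lie below 0. Slc5a1 is drawn in blue, but it was chosen for its fall, so its colour stands for no test.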

How the data were processed

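Per the labels' protocols, poly(A) RNA of each lung was captured on oligo(dT) beads, broken into fragments and copied with random primers; strand was not marked in any step described, so sense and antisense reads cannot be separated. The submitters' processing notes name HISAT2, StringTie 1.3.1, DESeq2, fastp 0.18.0 and CASAVA 1.8 as tools and Rnor_6.0 as the build, and the sources used here do not give their settings. The authors deposited whole-number counts per gene, without normalization, beside FPKM scaled to gene length and to the summed counts of the library.

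Counts were fitted with edgeR 4.0.16 in R 4.3.3 (filterByExpr with a minimum count of 10, TMM scaling, robust quasi-likelihood test, group as the only term). The SE is the log2 change before shrinkage over the root of the F statistic. Alternatives were DESeq2 1.42.0, other scaling, no filter, a replicate block and leaving out each library. Replicates differed by 23.4 (control) and 100 (bleomycin) times the sampling variance, so no library was a copy. The fit was also tested on counts simulated over 15709 genes. It found 68% of 2-fold rises, 94% of 4-fold rises, 58% of 2-fold falls and 92% of 4-fold falls. Of 174 calls 18 were unchanged genes, a larger share than the threshold promises. All changed genes had a mean log2 CPM of 1 or more, and the data themselves gave 2678 calls. Recovery in the data, and of scarcer genes, may therefore differ.

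The members and lists were chosen with earlier results of these data known. Named were all 38 members and, from each neighbouring list, up to 4 called genes by smallest p, or the 1 with the smallest p where none was called. Hkdc1, Pgd and G6pc1 were not found under their symbols, nor were 6 of the cell markers. Promoter windows are from RefSeq.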

Additional observations from a re-analysis of the deposited data

How the results depend on the processing

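Members called higher numbered 11 and lower 2, or 19 and 5 by DESeq2, with Car9 among the 19. The lower counts include Slc5a1, which was chosen for its fall and has no test here. The share that DESeq2 called over all genes was not counted, so its numbers have no background beside them. Leaving out 1 library gave between 0 and 26 higher and between 1 and 5 lower; with 1 control left, that library is assumed to vary like the bleomycin pair. Genes of the neighbouring lists numbered 6 higher and 5 lower, or 13 and 9 by DESeq2, and between 0 and 22 higher and between 0 and 15 lower with 1 library left out. Among genes not called, the log2 change turned sign when a library was left out for Hk1 (between -0.019 and 0.258), Pfkfb2 (between -0.395 and 0.174) and Bnip3 (between -0.064 and 0.263). The cause was not tested. The share of member windows with a promoter core was 53.8% when ACGTG alone was searched, in place of 66.7%.

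The difference between the control rats and that between the treated rats had a correlation of -0.0218 over genes. A single pair of differences cannot show whether same-numbered rats were paired, and the labels do not say that they were. A fit with the replicate block called 11 members higher and 3 lower, and of the neighbouring lists 3 genes higher and 6 lower. In it Pfkl and Eno1 lost the call, with edgeR adjusted p of 0.0622 and 0.0511, and Pfkfb3, Ldhb and Car9 gained it. The call of Car9, counted among the 11, supports nothing, because this gene entered the fit through the libraries where it was high. Fbp1, Ugp2, Slc5a8 and Ndrg1 lost it too, with edgeR adjusted p of 0.0772, 0.0636, 0.0627 and 0.0725.

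Car9 had the fewest counts of the members in the controls, 9 and 10.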
